A study of Mus musculus with 388 samples.

Results

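The 10 genes described here mark the osteoblast lineage, from its transcription factors to the proteins of mineralised bone matrix, and were taken by symbol from a table of 25000 genes. All 10 were in the table. They were measured by single-cell RNA sequencing of stromal cells sorted from the bone marrow of 2-month-old C57BL/6 mice. Every animal carried the same alleles, KitMerCreMer, which puts a tamoxifen-inducible Cre under the Kit gene, and R26tdTomato, a red reporter that Cre switches on, and all had tamoxifen before birth, at E12.5/14.5 in the notation of the labels. Sorted cells were PDGFRα-positive and negative for CD45 (blood), Ter119 (erythroid) and CD31 (endothelium). The 2 groups compared, Tomato+ and Tomato-, therefore differ in fluorescence and not in genotype or treatment: a red cell descends from a fetal cell that expressed Kit when Cre was active, whereas an unlabelled cell may also descend from a Kit-expressing cell in which no recombination took place. After filtering, 386 of 388 cells were used, 185 Tomato+ and 201 Tomato-.

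The cell titles give 2 orders and 8 sets. Order 1 holds the Tomato+ sets P1 (94 cells), P2 (5) and P3 (38) and the Tomato- set N2 (60). Order 2 holds the Tomato+ sets P1 and P2 (24 each) and the Tomato- sets N1 (71) and N2 (70). No animal is named, so each group counts as 1 sample: no test was made, differences have no replicate check, and the intervals given cover counting error only.

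Osteoblasts arise from mesenchymal precursors. RUNX2 and, downstream of it, SP7 (osterix) are transcription factors required for their formation. Committed cells then secrete type I collagen, whose triple helix is built from the products of Col1a1 and Col1a2, together with alkaline phosphatase (Alpl), which frees phosphate for mineral, and with the matrix proteins osteonectin (Sparc), osteopontin (Spp1) and bone sialoprotein (Ibsp). Osteocalcin, encoded in the mouse by the neighbouring genes Bglap and Bglap2, is made late, by mature osteoblasts. In adult marrow the perivascular stroma that expresses the leptin receptor gene Lepr contains precursors of osteoblasts and of adipocytes.

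The osteocalcin genes are shown first because reads from them can be hard to assign. On GRCm38, in the GENCODE M21 annotation, Bglap3, Bglap2 and Bglap lie in this order on the minus strand of chromosome 3, at 88368616 to 88372743, 88377736 to 88378699 and 88383501 to 88384464. The coding sequences of Bglap and Bglap2 are both 288 bases long and differ at 4 bases, which are in capitals below, so that 98.6% of bases are identical and the longest identical run is 241 bases.
Bglap: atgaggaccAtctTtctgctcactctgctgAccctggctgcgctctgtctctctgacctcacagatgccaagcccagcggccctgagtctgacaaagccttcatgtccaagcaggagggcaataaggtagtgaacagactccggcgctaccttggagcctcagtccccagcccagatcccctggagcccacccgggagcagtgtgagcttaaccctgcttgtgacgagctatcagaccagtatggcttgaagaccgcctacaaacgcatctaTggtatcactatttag
Bglap2: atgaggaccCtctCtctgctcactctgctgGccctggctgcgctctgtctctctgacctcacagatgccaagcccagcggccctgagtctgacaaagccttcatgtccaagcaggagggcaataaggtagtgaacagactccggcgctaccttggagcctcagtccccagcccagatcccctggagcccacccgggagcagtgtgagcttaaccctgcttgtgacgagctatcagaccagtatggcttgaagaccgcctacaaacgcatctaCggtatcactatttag
Of the stretches of 50 bases in the annotated transcripts of Bglap2, 88.2% also occur in Bglap or Bglap3; for Bglap the share was 56.6%. The sources used here do not say how such reads were divided, so the levels of Bglap and Bglap2 are uncertain relative to each other, and, as the orders may have been counted differently, between orders.

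RefSeq promoter windows (GRCm38.p6, 250 bases before to 50 after the start) were matched for 7 of the 10 genes. The windows of Bglap and Ibsp are printed because these genes stood at the opposite ends of the range described below: counts of Bglap came almost wholly from 3 cells, and Ibsp had counts in every cell. The search covered the RUNX core TGTGGT, the TATA box TATAAA and the GC box GGGCGG on both strands, and capitals mark matches to the RUNX core and the TATA box. The Bglap window is chr3:88384417-88384716 on the minus strand and the Ibsp window chr5:104299037-104299336 on the plus strand.
Bglap: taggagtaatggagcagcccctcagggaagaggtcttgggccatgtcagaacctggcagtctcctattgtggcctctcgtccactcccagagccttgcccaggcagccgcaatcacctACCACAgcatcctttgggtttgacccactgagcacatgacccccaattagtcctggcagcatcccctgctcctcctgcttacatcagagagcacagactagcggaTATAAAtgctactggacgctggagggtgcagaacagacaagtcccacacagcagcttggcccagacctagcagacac
Ibsp: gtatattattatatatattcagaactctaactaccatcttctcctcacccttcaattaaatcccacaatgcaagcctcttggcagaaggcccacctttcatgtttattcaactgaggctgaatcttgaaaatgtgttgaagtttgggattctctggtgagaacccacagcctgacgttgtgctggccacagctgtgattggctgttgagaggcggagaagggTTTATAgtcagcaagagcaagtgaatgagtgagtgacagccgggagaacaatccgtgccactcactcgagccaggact
The Bglap window held 1 match to the RUNX core and 1 to the TATA box, and the matches do not overlap. The Ibsp window held a TATA box match and no match to these 6 letters of the RUNX core. Among all 32851 promoter windows of the table, 16.8% held the RUNX core, 13.6% the TATA box and 35.7% the GC box. Of the 9 windows that belong to the 7 genes, 4 held the RUNX core (Bglap, Runx2 with 3 matches, Sparc and 1 of the 2 windows of Spp1), 4 the TATA box (Bglap, Ibsp and 1 window each of Spp1 and Alpl) and 2 the GC box (Col1a2 and 1 window of Alpl). These are matches of letters and not sites of binding.

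Library sizes and the sort were looked at before the genes. Kept cells held 18031 to 3833473 counts, with set medians from 357347 to 848562. Lepr+ marrow stroma was the cell type to expect, and all 22 genes of its marker list had counts in 7 of the 8 sets. Their summed level was 86588 to 106443 CPM (counts scaled to 1000000 per cell or sum) in order 2 and in P1 of order 1, but 45111 to 60058 CPM in P2, P3 and N2 of order 1. Cells with under 1000 CPM of Lepr made up 36.8% of P3 and 36.7% of N2 in order 1, against 8.51% of P1, and all 5 cells of P2 were among them. In order 2, blood genes stood out in Tomato- cells: 12 cells had 5 or more counts of at least 9 of the 18 blood markers, 11 of them in N2 and 1 in N1. Without these 12 cells the mean ratios of the 10 genes moved by less than 0.1 on the log2 scale and none passed the size rule given below. Of the sort's own markers, Pdgfra had at least 1 count in 374 of the 386 cells. With 5 counts required, Pdgfra remained in 78.7% of P1, 60% of P2 and 55.3% of P3 in order 1. For the Tomato+ sets of order 2 it was 95.8% of P1 and 87.5% of P2. In N1 and N2 of order 2, 9 of the 12 blood-marker cells had a Pdgfra count, and 2 had at least 5. Of the 129 others, 118 had at least 5. Ptprc (CD45) or Pecam1 (CD31) reached 5 counts in 35 cells, a stricter limit than 1 count. Among the same 129 cells, 21 had at least 1 Ptprc count. The 5 osteocyte markers summed to 87 to 309.5 CPM in 7 sets and to 2584 CPM in P2 of order 1. The median of the 5 cells of P2 was 22.4 CPM and the highest 7694 CPM, and 1 of the 5 markers reached 20 CPM there. Of these markers, Phex stood at 92 to 268 CPM and Dmp1 at 3.65 to 12.9 CPM over the groups and orders, while Sost was at 0 in all 8 sets and Mepe in 5 of the 8. What the animals, sorts or plates behind orders and sets were is not stated. The column names of order 1 also carry 12 codes, called pools here, and what these stand for is not stated either. All 199 columns of order 1 and 0 of the 189 of order 2 name RSEM, so whether both orders were counted in the same way is not known, and a difference in level between orders cannot be told apart from a difference in counting.

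Per kilobase of exon, which allows genes to be compared, the summed level over all kept cells was highest for Ibsp at 5560 CPM per kb, followed by Spp1 at 2743 and Sparc at 854. Col1a2 stood at 137 and Col1a1 at 79.6 CPM per kb. Bglap (47.3), Bglap2 (40.2), Alpl (26.2) and Runx2 (25.6) came next, and Sp7 was lowest at 5.16. The places of Bglap and Bglap2 rested on Tomato+ cells of order 1, at 112 and 95.4 CPM per kb. In the other groups and orders Bglap stood at 0.0871 to 5.12 and Bglap2 at 0 to 1.29, below Alpl and Runx2. Together the 10 genes took 2.19% of all counts, and Ibsp alone 1.15%. Ibsp ranked first, then Spp1 and then Sparc, in both groups of both orders. In Tomato- cells of order 1, Ibsp stood at 10476 and Spp1 at 1304 CPM per kb, and in Tomato- cells of order 2 they were closer, at 3838 and 3019.

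**Figure D1:**
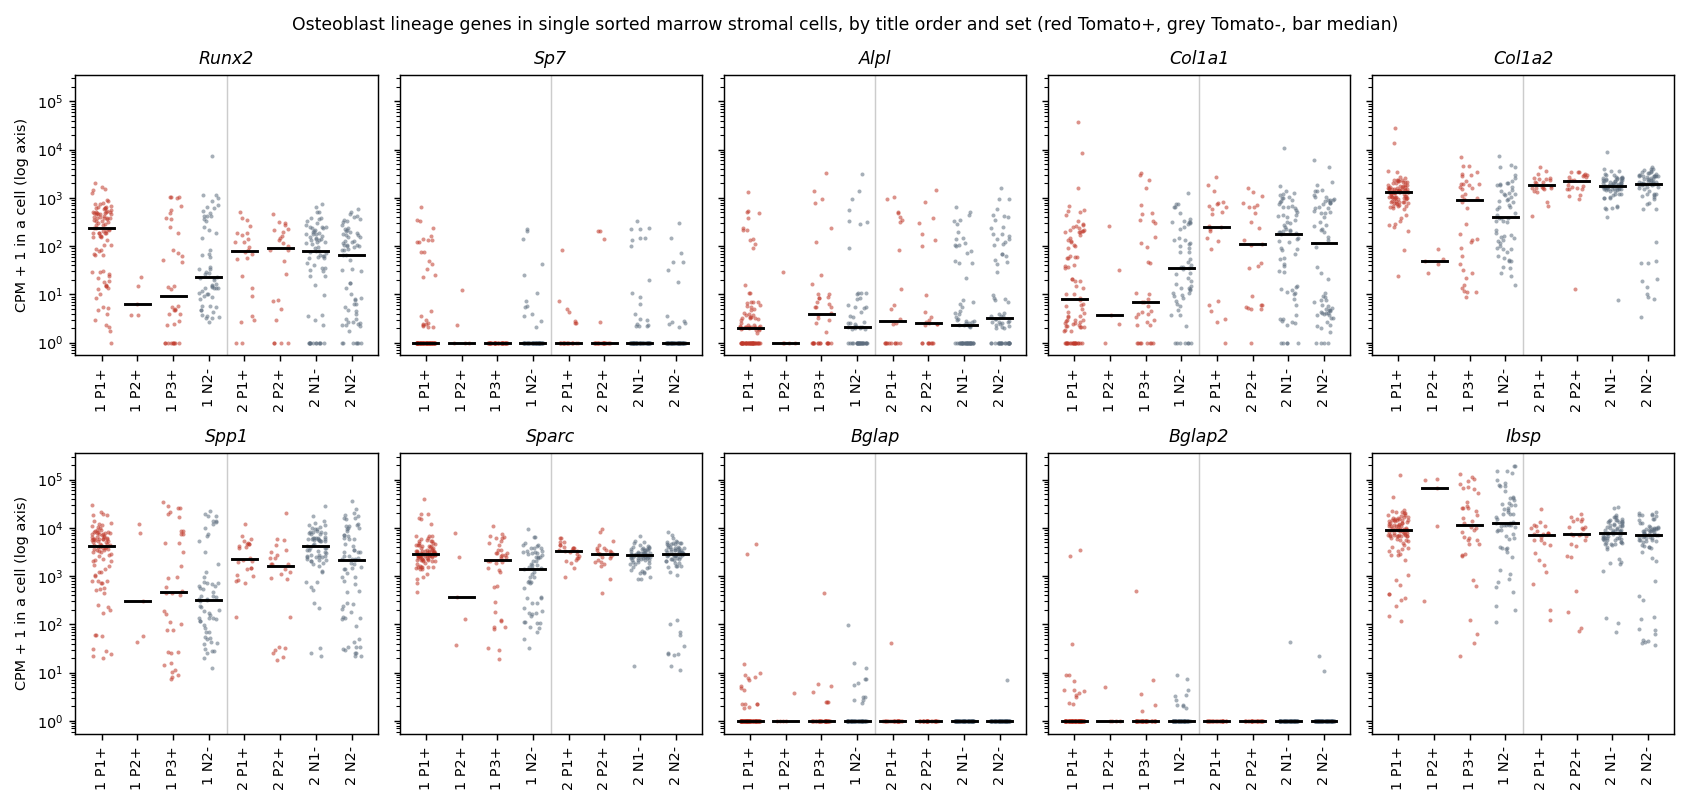
Level of each gene in every kept cell (CPM + 1, log axis) by title order and set (1 P1+ is the Tomato+ set P1 of order 1); red points are Tomato+ cells, grey points Tomato- cells, and black bars set medians. Col1a2, Spp1, Sparc and Ibsp have counts in all 386 cells, Bglap and Bglap2 are at 0 in most, and in order 1 the sets spread more widely than in order 2.

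The genes differed in how many cells carried them. Col1a2, Spp1, Sparc and Ibsp had at least 1 count in 386 of 386 cells (lower 95% limit 99.0%, exact Clopper-Pearson). Runx2 had a count in 351 cells (90.9%), Col1a1 in 339 (87.8%), Alpl in 230 (59.6%), Sp7 in 86 (22.3%), Bglap in 39 (10.1%) and Bglap2 in 33 (8.55%). With 5 counts required, the shares were 69.9% for Runx2, 57.5% for Col1a1, 23.6% for Alpl, 10.9% for Sp7, 4.40% for Bglap and 2.59% for Bglap2. A count is not the same as expression here. The 12 cells with blood markers, with a median of 885322 counts, all had counts of Ibsp (36.3 to 380 CPM, median 72.2), Spp1 (20.7 to 280 CPM, median 32.9), Sparc (10.4 to 123 CPM, median 24.3) and Col1a2 (2.36 to 120 CPM, median 15.6). The other 129 cells of the same sets, with a median of 637863 counts, had medians of 7877, 3524, 2816 and 1948 CPM, so that the blood-marker cells stood at 0.916%, 0.934%, 0.864% and 0.802% of them. Lepr was at 0.816% on the same measure. What these low counts stand for was not tested, and no such cells were found in order 1. With at least 1% of the counts of the pool's highest cell required (a set standing for a pool in order 2), Spp1 remained in 71.5% of all cells, Col1a2 in 86.8%, Sparc in 87.8% and Ibsp in 89.4%. For order 1 alone the respective shares came to 38.3%, 65%, 60% and 88.3% in Tomato- and to 74.5%, 88.3%, 92% and 89.8% in Tomato+ cells. These shares for order 1 are listed for Spp1, Col1a2, Sparc and Ibsp, in that sequence.

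**Figure D2:**
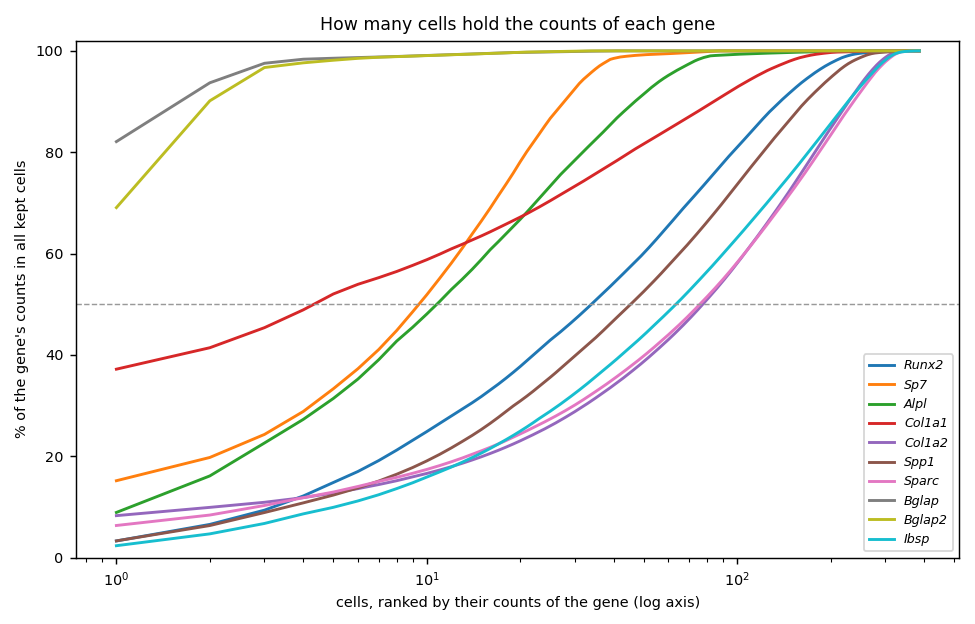
Cumulative share of each gene's counts over the 386 kept cells, ranked from the cell with most counts of that gene (log axis); the dashed line marks 50%. The highest cell holds 82.1% of all Bglap and 37.2% of all Col1a1 counts, whereas 50% of the counts of Col1a2 and Sparc are spread over 78 and 76 cells.

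Counts of the genes were also concentrated to different degrees. For Col1a2, Sparc, Spp1 and Runx2, 50% of all counts lay in 78, 76, 46 and 34 cells. For Alpl it was 11 cells, for Sp7 10 and for Col1a1 5, and for Bglap a single cell held 82.1% of the counts. The sums of Col1a1 and of the osteocalcin genes are thus mostly the sums of a handful of cells. In a sum over cells, fewer cells with a transcript and less of it per cell cannot be told apart.

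The transcription factors came first in the lineage and were low in level. Runx2 (chromosome 17, 44495987 to 44814797, minus strand) summed to 331 CPM (95% Poisson interval 328 to 335) in Tomato+ and 283 CPM (277 to 288) in Tomato- cells of order 1. In order 2 the levels were 123 (119 to 127) and 115 CPM (113 to 117). The log2 ratios of Tomato+ over Tomato-, on CPM + 1, were 0.23 and 0.09. The levels of Runx2 lay farther apart between the orders than between the groups, with the limit on counting given above. Within order 1 the median cell stood at 236 CPM in P1, 8.47 in P3 and 21.5 in N2, and the highest cell of all, in N2, at 7477 CPM; without the highest cell of each sum the order 1 ratio was 0.50. In order 2 the set medians were 64.6 to 91.5 CPM and lay close together.

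Sp7 (chromosome 15, 102356606 to 102367182, minus strand) summed to 20.9 CPM (20.1 to 21.8) in Tomato+ and 9.73 CPM (8.69 to 10.9) in Tomato- cells of order 1, whereas order 2 gave 14.6 (13.3 to 16.01) and 17.2 CPM (16.4 to 18.1) in order 2. The ratios were 1.03 and -0.22. The shares of cells with 5 counts lay close together: 12.4%, 8.33%, 8.33% and 11.3%, in the order Tomato+ and Tomato- of order 1, then Tomato+ and Tomato- of order 2. Its counts lay in few cells, of which 25 were above 100 CPM, and none of these was among the 38 cells of P3. The mean ratio of 0.40 rested on P1 of order 1, and leaving that set out gave -1.70. Over all sets together, cells above 100 CPM of Sp7 had a median Runx2 level of 161 CPM against 77.1 CPM in the 361 others. Col1a1 (39.4 and 38.6), Alpl (1.12 and 1.37) and Lepr (4182 and 3931) stood at like medians in both. With 5 counts required, 33 of 42 cells with Sp7 (78.6%) also had Runx2, against 69.9% of all cells. Both comparisons pool sets that differ in Runx2. Across the cells of a set, Spearman's rho of Runx2 and Sp7 averaged 0.12 and was above 0 in 4 of 6 sets.

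Alkaline phosphatase and collagen mark the matrix-forming stage. Alpl (chromosome 4, 137741733 to 137796384, minus strand) was at 94.7 CPM (92.9 to 96.5) in Tomato+ and 151 CPM (147 to 156) in Tomato- cells of order 1, and at 143 (139 to 148) and 90.2 CPM (88.2 to 92.1) in order 2. The ratios of -0.67 and 0.66 had opposite signs, and the mean was 0.00. Without the highest cell of each sum, they were -0.31 and 0.64. Alpl was low in most cells and high in some: the median cell was at 0 to 2.88 CPM in every set, while 68 cells exceeded 100 CPM. These cells were 12.4% of Tomato+ (7.40 to 19.1) and 11.7% of Tomato- (4.82 to 22.6) in order 1. In order 2 they made up 29.2% of Tomato+ (17 to 44.1) and 21.3% of Tomato- (14.8 to 29). These intervals cover the counting of cells within 1 sample a group and do not compare the groups. Over both orders together, cells with Alpl above 100 CPM had a higher median of Col1a1, 279 against 28 CPM in the 318 other cells. Their medians of Col1a2 (1996 and 1444 CPM) and Runx2 (121 and 73.1 CPM) were apart by less. These medians pool orders that differ: 5 or more Col1a1 counts were met in 48.2% of order 1 and 67.2% of order 2 cells. Across the cells of a set, Spearman's rho of Alpl and Col1a1 averaged 0.14, from 0.01 to 0.27.

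Col1a1 (chromosome 11, 94936224 to 94953042, plus strand) summed to 653 CPM (648 to 658) in Tomato+ and 212 CPM (207 to 217) in Tomato- cells of order 1, and in order 2 to 447 (439 to 454) and 501 CPM (497 to 506). The ratios were 1.62 and -0.17. A single cell of P1 held 71.7% of the order 1 Tomato+ counts, at 38027 CPM. Without the highest cell of each sum, the order 1 levels were 187 and 173 CPM and the ratio was 0.11. The medians of the cells pointed the other way in order 1: 6.07 CPM in Tomato+ and 33.7 CPM in Tomato- cells. With each cell thinned to 150000 counts, a Col1a1 count remained in 51.1% of the Tomato+ (42.3 to 59.9) and 81.1% of the Tomato- cells (68 to 90.6) of order 1. In order 2 the thinned shares were 87.5% and 80.7%, and the medians 217 and 148 CPM. Cells above 1000 CPM were 7 and 1 in the groups of order 1 and 6 of 48 and 17 of 141 in order 2.

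Col1a2 (chromosome 6, 4504814 to 4541544, plus strand) was at 1649 CPM (1641 to 1656) in Tomato+ and 1023 CPM (1012 to 1034) in Tomato- cells of order 1, with a ratio of 0.69, and at 2073 (2057 to 2089) and 1894 CPM (1885 to 1903) in order 2, with a ratio of 0.13. Its set medians were steady in order 2, from 1795 to 2194 CPM, and ran from 47.6 in P2 and 409 in N2 to 1296 CPM in P1 of order 1. In the collagen molecule the Col1a1 product is the more abundant chain. Per kilobase of exon the Col1a2 transcript was the higher of the pair, 137 against 79.6 CPM per kb over all kept cells. Among the 222 cells with 5 or more Col1a1 counts, Col1a1 exceeded Col1a2 per kilobase in 39 (17.6%), and the median log2 ratio of Col1a1 over Col1a2 was -1.34. The medians of the groups and orders ran from -2.01 to -0.85, all below 0.

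**Figure D3:**
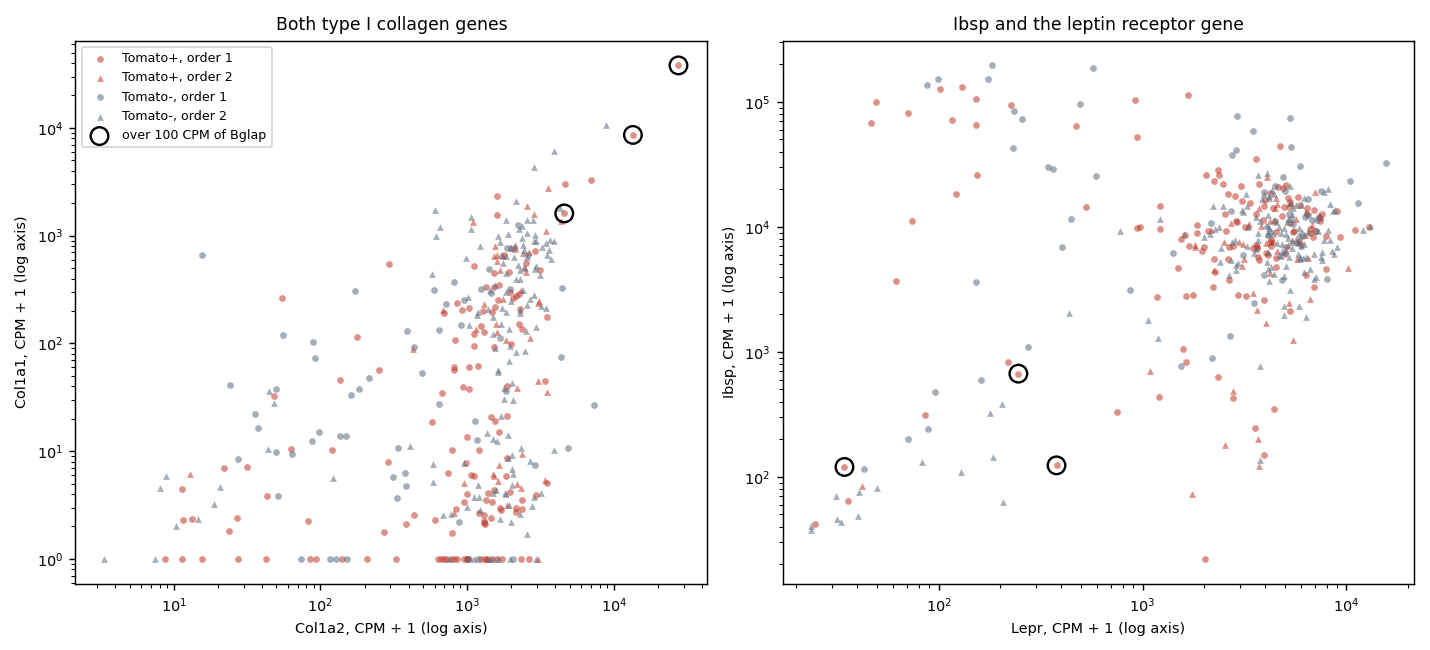
Each point is 1 kept cell (CPM + 1, log axes; red Tomato+, grey Tomato-, circles order 1, triangles order 2), with Col1a1 against Col1a2 on the left and Ibsp against Lepr on the right; rings mark the 3 cells above 100 CPM of Bglap. Most cells form a cloud at high Col1a2 with Col1a1 spread from 0 upward, and 20 of the 24 cells above 50000 CPM of Ibsp, all of order 1, lie under 1000 CPM of Lepr.

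The osteocalcin genes set a small number of cells apart. Bglap summed to 69.2 CPM (67.7 to 70.8) in Tomato+ and 3.16 CPM (2.58 to 3.83) in Tomato- cells of order 1, against 0.483 (0.270 to 0.796) and 0.0538 CPM (0.0175 to 0.126) in order 2. The ratios on CPM + 1 were 4.08 and 0.49. Bglap2 was at 44.9 CPM (43.7 to 46.2) and 0.608 CPM (0.372 to 0.939) in order 1. In order 2 it had 0 counts in Tomato+ cells, which allows up to 0.0965 CPM (3 counts over the group), and 56 counts in 3 of 141 Tomato- cells. Just 3 cells exceeded 100 CPM of either gene, and all were Tomato+ cells of order 1, 3 of 137 (2.19%, 0.454 to 6.27), beside 0 of 60 Tomato- cells (up to 5.96% by the same exact interval). The first, in P1, had 4694 CPM of Bglap and 2560 CPM of Bglap2. The next, also in P1, had 2936 and 3455 CPM, and the third, in P3, 446 and 492.8 CPM. Bglap3 had 0 counts in the 2 cells of P1.

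Several matrix genes were far higher in the P1 pair than in the other 384 cells. The first had 38027 CPM of Col1a1, 27643 of Col1a2, 40100 of Sparc and 511 of Alpl, and 0 of Sp7. The other had 8610, 13517 and 19362 CPM of Col1a1, Col1a2 and Sparc, 336 CPM of Sp7 and 9.68 of Alpl. Their Col1a2 levels were the highest of all cells, whereas a Tomato- cell of order 2 had more Col1a1 (10719 CPM) and a Tomato+ cell of order 1 slightly more Sparc (19883 CPM) than the lower of the pair. Postn, the gene of periostin, stood at 22166 and 8823 CPM against at most 4988 in other cells, and the small proteoglycan genes Aspn (23983 and 12033) and Fmod (9273 and 18107) likewise exceeded the highest other cells, at 8586 and 3853 CPM. Lum was close to its highest other cell (14567 and 15959 against 13409 CPM), and Dcn stood at 10137 and 5423 CPM against up to 73223 CPM elsewhere. Fmod also stands on the tendon list. The same cells had little of the genes typical of the rest: Ibsp 119 and 668 CPM, Spp1 29.9 and 200.01, Lepr 33.6 and 245, and Cxcl12 474 and 1423 against a median of 45295 CPM. The P3 cell had Ibsp at 122 and Spp1 at 76.7 CPM beside 1607 CPM of Col1a1, and 0 of Postn and Aspn. The cells with the most osteocalcin transcripts were thus low in Ibsp.

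Both P1 cells carried the same of the 12 codes in the order 1 column names, called pools here, whose meaning is not stated. Outside the 3 high cells this pool held 142 of 192 Bglap counts, but 38 of 167 Bglap2 counts. Of its 19 other cells, 18 had a Bglap count, 9 of 10 Tomato+ and 9 of 9 Tomato-. In the other pools of order 1, 17 of 176 cells had a count (9.66%), and in order 2 it was 2 of 189 (1.06%). For Bglap2 the same numbers were 15 of 19, 13 of 176 and 3 of 189. The part of shared reads within the pool was not tested. The highest other cell of the pool, a Tomato- cell with 94.2 CPM, held 63 of the 142. Without the 2 P1 cells the mean Bglap ratio fell from 2.28 to 0.28 and the mean Col1a1 ratio from 0.72 to -0.27.

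The non-collagen matrix genes were the most abundant. Sparc (chromosome 11, 55394500 to 55423183, minus strand) summed to 3886 CPM (3874 to 3898) in Tomato+ and 2144 CPM (2128 to 2160) in Tomato- cells of order 1, and in order 2 to 3414 (3393 to 3434) and 2777 CPM (2766 to 2788). The ratios of 0.86 and 0.30 had the same sign, and all 24 alternatives kept it, from 0.30 to 0.62 for the mean. Within the 7 pools of order 1 that hold both groups the Sparc ratio was 0.93. Between the order 2 sets that share a number it was 0.38 (sets 1) and 0.23 (sets 2), although no label says that a number marks a batch. Col1a2 was the other gene above 0 in all 3 of these comparisons (0.82, 0.02 and 0.22). The order 2 ratio of Sparc did not reach 1.5-fold.

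Spp1 (chromosome 5, 104435118 to 104441050, plus strand) stood at 5259 CPM (5245 to 5272) in Tomato+ and 2149 CPM (2133 to 2165) in Tomato- cells of order 1. In order 2 the order was the other way round, at 3016 (2997 to 3035) and 4975 CPM (4961 to 4989). The ratios were 1.29 and -0.72, and without the highest cell of each sum 1.46 and -0.86. The set medians showed the same split: 4202 CPM in P1, 463 in P3 and 323 in N2 of order 1, against 2246 and 1593 in the Tomato+ and 4236 and 2181 in the Tomato- sets of order 2. P3, a Tomato+ set, was thus nearer to N2 than to P1 by its median, although 7 of its 38 cells exceeded 10000 CPM. Shares of cells above 10000 CPM were 13.9% in Tomato+ and 13.3% in Tomato- for order 1. For order 2 they were 4.17% (0.509 to 14.3) in Tomato+ and 14.2% (8.88 to 21.1) in Tomato-.

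Ibsp (chromosome 5, 104299171 to 104311469, plus strand) lies 123648 bases from Spp1, with Mepe between them in the annotation, and summed to 12651 CPM (12630 to 12672) in Tomato+ and 21664 CPM (21614 to 21715) in Tomato- cells of order 1, and in order 2 to 7261 (7231 to 7291) and 7937 CPM (7919 to 7955). The ratios were -0.78 and -0.13, and the mean of -0.45 kept its sign in all 24 alternatives, from -0.64 to -0.01. Between the order 2 sets of the same number the values were -0.44 and 0.11. In order 2 the set medians lay between 6979 and 7846 CPM and no cell exceeded 27096 CPM. Order 1 had a long upper tail, in which 24 cells had more than 50000 CPM: 11 of 60 in N2, 9 of 38 in P3, 3 of 5 in P2 and 1 of 94 in P1. The highest cell, in N2, reached 195531 CPM, so that 19.6% of all its counts were bone sialoprotein transcripts.

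These Ibsp-rich cells were unlike the rest of order 1 in other ways. Of the 24, 20 had under 1000 CPM of Lepr, and their median Lepr level was 204 against 3595 CPM in the 173 other cells of order 1. Their median total was 290967 against 774174 counts. Thinned to 150000 counts, 21 of them showed a median of 2066 genes against 3008 in 165 others. The 50 most abundant genes took 63.8% against 33.2% of counts. Ibsp is 1 of these 50 in the Ibsp-rich cells, so choosing cells by Ibsp raises this share and leaves fewer counts for other genes. Mitochondrial transcripts stood at a median of 44643 against 14501 CPM, and the stress list at 2788 against 16173 CPM. The sets of order 1 also differed in these quantities. P1 had medians of 848562 counts, 3231.5 genes in thinned cells, 13174 mitochondrial CPM and 19967 CPM of the stress list. In N2 the medians were 500702, 2712, 21421 and 8854. The part of the sets in the traits of the Ibsp-rich cells was not tested. The median Ibsp level in cells under 1000 CPM of Lepr was 27278 CPM in N2 of order 1, but 77.9 CPM in Tomato- cells of order 2, where 14 of 16 such cells were under 1000 CPM of Ibsp. Of these 16, 12 were the cells with blood markers, and the 4 others held 61.7 to 9298 CPM of Ibsp, so this is not a comparison of stromal cells alone. The part of RNA quality in the Ibsp level was not tested. Across the cells of a set, Ibsp ran against the number of genes met in thinned cells in 6 of 7 sets (mean Spearman's rho -0.27). Here too, more Ibsp leaves fewer counts for other genes.

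The 10 did not move one way in both orders, and they are set beside all genes here. The size rule asks for a ratio above 1.5-fold of the same sign in both orders, at least 20 CPM in the higher group (summed over both orders) and a count in 20% of its cells, with per-cell means pointing the same way. It was passed by 0 of the 9 members with at least 20 CPM in 1 of the groups summed over both orders (all but Sp7). Of the 7001 genes at that level, 7.26% passed, 3.01% higher and 4.24% lower in Tomato+. At that share, 0 of 9 does not set the members apart from all genes. In order 1 alone, 8 of the 9 were past 1.5-fold, 6 higher and 2 lower, beside 52.9% of all genes (29.4% higher and 23.6% lower). In order 2 it was 3 of the 9, with Alpl higher and Spp1 and Bglap2 lower, beside 25.4% (8.96% higher and 16.4% lower). Alpl, Spp1 and Bglap2 were past 1.5-fold with opposite signs in the orders, as were 7.43% of all genes. The median ratio of these 9 was 0.86 in order 1 and 0.09 in order 2, and that of all 7001 genes 0.06 and -0.03. With Sp7 included, the medians of the 10 were 0.94 and -0.02.

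**Figure D4:**
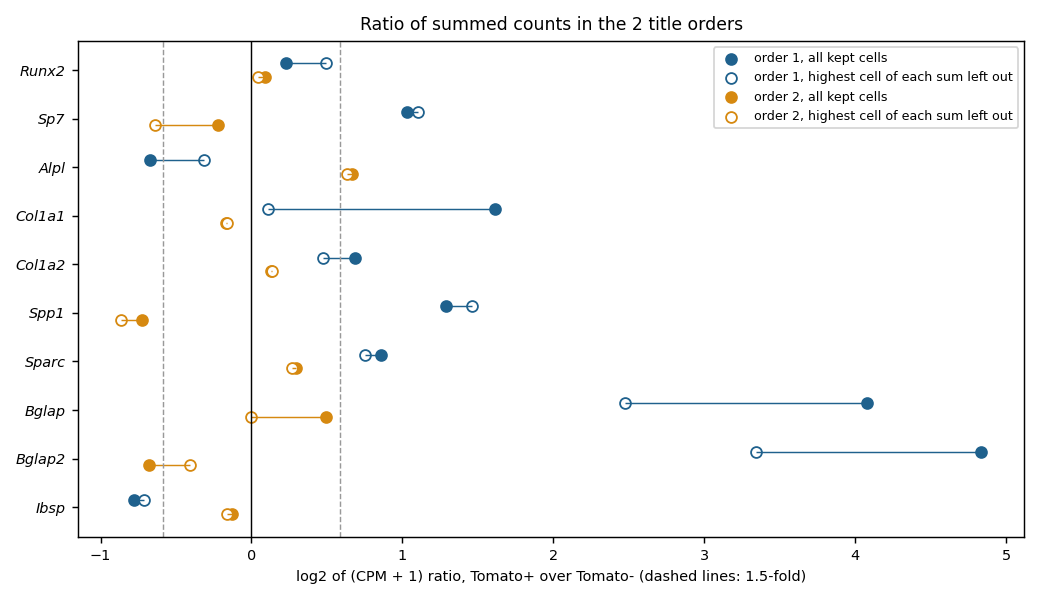
Log2 ratio of summed levels (CPM + 1), Tomato+ over Tomato-, in order 1 (blue) and order 2 (orange); filled points use all kept cells, open points leave out the highest cell of each sum, and dashed lines mark 1.5-fold. Col1a1 moves from 1.62 to 0.11 in order 1 when its highest cells are left out, and Alpl and Spp1 lie on opposite sides of 0 in the orders.

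Lists of genes that act with the 10 were compared in the same way. Of 30 genes for the processing of type I collagen, 26 had at least 20 CPM and 0 passed the size rule; their median ratio was 0.62 in order 1 and 0.06 in order 2. By the mean over orders the highest was Fkbp10, a collagen chaperone (2.10 and 0.36), and the lowest Plod2, a lysyl hydroxylase (-0.95 and -0.24). Of 19 mineralisation genes, 14 were at that level and 0 passed. Fam20a was highest (1.45 and 0.24) and Pdpn, which marks early osteocytes, lowest (-3.19 and -1.99), with a level of 2.97 CPM or less in both groups of order 2. Of 39 osteoblast regulators, 28 were at that level and 2 passed, both higher in Tomato+ (7.14% against 7.26% of all genes). Zfp423, which encodes a zinc-finger protein of mesenchymal precursors, stood at 45.6 CPM in Tomato+ and 19 CPM in Tomato- cells of order 1. In order 2 its levels were 55.8 and 17.9 CPM. Trps1, which encodes a GATA-type repressor in skeletal development, stood at 78.7 and 34.5 CPM, then 45.9 and 22.1 CPM. Of 28 symbols listed for late osteoblasts and osteocytes, 27 were found (all but Fam46a), 11 were at that level and 0 passed. By the mean over orders, Tnc was highest (0.38 and 0.39) and Postn lowest (0.46 and -2.11). Of the 22 marrow stroma genes 1 passed, Cxcl14, with 1857 and 823.5 CPM in order 1, then 4312 and 2716 CPM.

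Within single cells the members were met in varying numbers. With 5 counts required, a cell held 3 to 9 of the 10, with a median of 6, and none held all. Since Col1a2, Spp1, Sparc and Ibsp were met in nearly every cell, the count mostly reflects the other 6. Cells with 7 or more made up 18.2% of Tomato+ (12.2 to 25.7) and 20% of Tomato- (10.8 to 32.3) in order 1. In order 2 the shares were 31.2% for Tomato+ (18.7 to 46.3) and 22.7% for Tomato- (16.1 to 30.5).

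**Figure D5:**
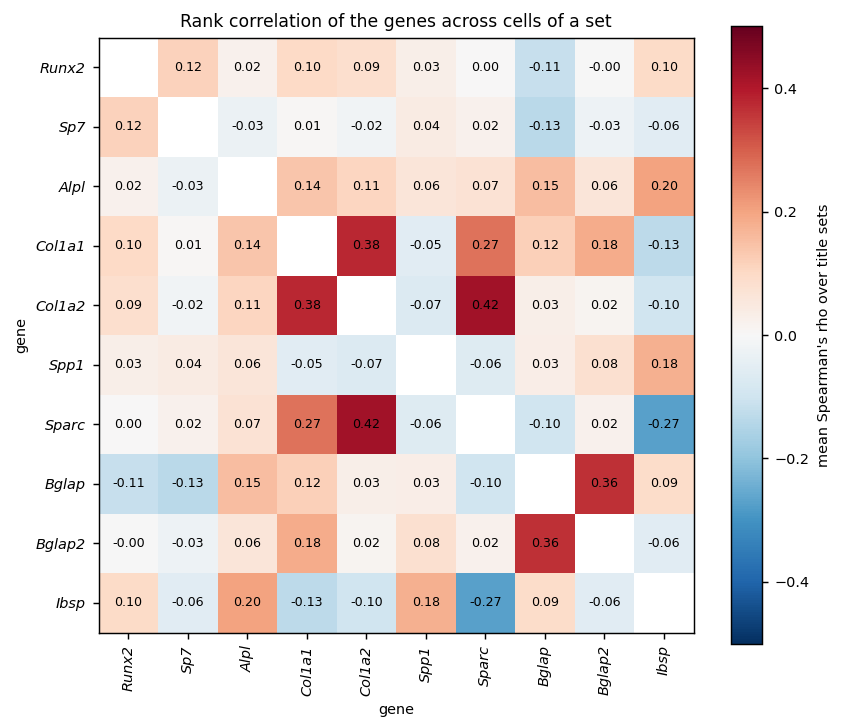
Spearman's rho between members across the cells of a title set, averaged over up to 7 sets with at least 20 cells (colour and printed value). The pairs among Col1a1, Col1a2 and Sparc stand at 0.27 to 0.42, and Ibsp against Sparc is the lowest at -0.27.

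Across the cells of a set, 3 members went together. Spearman's rho, averaged over 7 sets with 24 to 94 cells, was 0.42 for Col1a2 and Sparc (0.26 to 0.66, above 0 in 7 of 7 sets), 0.38 for Col1a1 and Col1a2 (above 0 in 6) and 0.27 for Col1a1 and Sparc (above 0 in 6). The cells of a set differ in depth and may share libraries, so these values are descriptions and have no p-value. The 12 blood-marker cells, 11 of them in N2 of order 2, were kept, and they were low in Col1a2, Sparc, Spp1 and Ibsp alike. Their part in these values was not tested. Bglap and Bglap2 were at 0.36 over the 4 sets that had both, which also share sequence. Ibsp and Spp1 were at 0.18 (above 0 in 5 of 7 sets). Per kilobase, Spp1 exceeded Ibsp in 95 of 386 cells, and in 5 of the 60 Tomato- cells of order 1. Ibsp and Sparc were at -0.27, from -0.73 to 0.35. Runx2 was near 0 with Sparc, Bglap2, Alpl and Spp1, at -0.00 to 0.03, and reached 0.12 with Sp7.

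Among 4644 other genes with 5 counts in at least 20% of cells, the 5 most like each member were taken by the same measure. The blood-marker cells were kept here too. For Col1a1 they were Col3a1 (0.41), Dcn (0.32), Scpep1 (0.32), Col6a2 (0.32) and Col5a2 (0.30), and for Col1a2 Bgn (0.37), Pcolce (0.35), Lrp1 (0.34), Dcn (0.33) and Col5a2 (0.33). Sparc was most like Bgn (0.44, above 0 in 7 of 7 sets), Ppic (0.43), Igfbp7 (0.41), Cd81 (0.37) and Igfbp4 (0.34). Ibsp was led by Igfbp5 (0.33), Tln2 (0.28), Mme (0.26), Cst3 (0.23) and Malat1 (0.23), and Spp1 by Pappa (0.25), Sdc2, Ccl7, Cldn10 and Skil (0.22 to 0.23). Alpl was led by Aldh1a2 (0.28), the collagenase gene Mmp13 (0.27), Tpm1, Ptprd and Tln2 (0.27 each), and Runx2 by Atxn7l3b (0.27), Cxcl14, Tsc22d3, Cd1d1 and Cdh2 (0.26 each). After thinning, 24 of these 35 places kept their gene among the first 5.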

How the data were processed

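Each of the 388 samples is 1 cell, and 1 table holds all cells. Per the file headers and the values, the deposited values are expected counts, made by the authors before deposit: all column names of order 1 and none of order 2 carry RSEM, and 4.91% of values above 0 were not whole. Per the submitters' processing notes, GRCm38 is the build named, and StringTie 1.3.3b, HTSeq 0.6.0 and HISAT are listed without roles. Per the labels' protocols, cDNA from lysed single cells was amplified over the whole transcript and no molecular identifiers are named, so reads are not independent molecules. No source used here gives the strand setting. Table columns were matched by name to a group, order and set, never to the title of a single cell, and 0 columns were left unused or identical.

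Values were rounded, cells under 1000 genes or 10000 counts were left out (2 cells), and counts were summed per Tomato group and order and scaled to CPM. Ratios are log2 of (CPM + 1), which understates changes of low genes. Intervals are exact Poisson for sums and exact Clopper-Pearson for shares, at 95%. No doublet caller was run. The members and lists were chosen with earlier results of these data known, and the per-cell limits (such as 100 CPM of Alpl), the rule of 9 blood markers and the genes described in the osteocalcin-rich cells were chosen after seeing values. The planned rule of 3 blood markers marked 121 cells, among them 52 of 71 in N1 and 57 of 70 in N2 of order 2, and was replaced. Named genes are the members, the list genes past the size rule or else the highest and lowest of a list, and the 5 genes most like each member. Alternatives covered scaling (TMM factors from edgeR 4.0.16, median-of-ratios factors), pseudocounts, rounding, filters, thinning, pool background, single cells, batches and each set left out. The ratios, the size rule and the rank correlation were tried on simulated cells with known changes. The simulation had no differences in expression between orders, sets or pools and no genes concentrated in a few cells, so it does not cover those cases. Python 3.11.15, pandas 2.3.3, SciPy 1.17.1 and R 4.3.3 were used.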

Additional observations from a re-analysis of the deposited data

Results flagged for a closer look

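The log2 ratios of Tomato+ over Tomato- were past 1.5-fold with opposite signs in the orders for 3 genes, and the difference was not tested. For Spp1 the ratio of order 1 minus that of order 2 was 2.01, for Alpl it was -1.33 and for Bglap2 it was 5.52. The Bglap2 value rests on few cells: its order 2 ratio compares 0 with 56 counts. Without the highest cell of each sum that ratio was -0.41, which is under 1.5-fold.

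Among the 5 cells of P2 of order 1, the highest cell stood far above the next for 5 genes, not always the same cell. Chance marks about 1 in 20 groups of normally distributed values, but the levels of these genes in cells were skewed, so that rate does not hold here. For Alpl, Bglap and Bglap2 the other 4 cells were at 0, so that any cell with a count would be marked. The values were 11.2 CPM (next 1.37) for Sp7, 28.1 CPM (next 0) for Alpl, 264 CPM (next 31.7) for Col1a1, 2.75 CPM (next 0) for Bglap and 4.12 CPM (next 0) for Bglap2.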

How the results depend on the processing

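No member passed the size rule in 23 of the 24 alternatives. Without the set N2 of order 1, the sole Tomato- set of that order, values are those of order 2 alone, and 2 members (Alpl and Spp1) were past it. The median ratio of the 10, 0.41, ranged from -0.02 (again without N2 of order 1) to 0.51. The sign of single genes changed in 9 alternatives for Alpl, 3 each for Runx2, Sp7 and Col1a1, 1 each for Spp1 and Bglap2, and 0 for Col1a2, Sparc, Bglap and Ibsp. The Runx2 ratio ran from -0.15 (thinned cells) to 0.84 (all cells summed over both orders). The largest Bglap value, 4.89, came from summing over both orders. Of 60 shares of cells, 43 moved with the counts required, the pool background or thinning. With 1 sample a group, and with amplified reads, depth limits what low genes such as Sp7, Bglap and Bglap2 can show. No paired analysis was possible because no test was made and columns carry no cell titles; ratios within shared pools are given as values only.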

Other observations

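Bglap3, the neighbour of Bglap2, had counts in 10 cells, of which 0 had a Bglap count and 1 had a Bglap2 count. Of these cells 8 were in order 1, with 0 in the pool of the osteocalcin-rich P1 cells, and 2 in order 2. The highest, in P1 of order 1, had 252 CPM. Mmp13, a collagenase gene of late osteoblasts and hypertrophic chondrocytes, had a median of 320 CPM in the 68 cells above 100 CPM of Alpl and of 41.8 CPM in the 318 others. Both orders are pooled in these medians, and cells above 100 CPM of Alpl were more frequent in order 2. Mmp13 was chosen after its values were seen.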
